A study of Homo sapiens with 8 samples.

Results

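The genes of the 16p11.2 interval around SEZ6L2 were taken as all genes of the count table whose GENCODE start lay on chromosome 16 between 29690000 and 30220000 (GRCh38), whatever their biotype, which gave 50 of 58302 genes in the table. QPRT, which starts 27 kb before the interval, was left out. The interval was selected on measured values, namely the lower counts of SEZ6L2 and YPEL3 in the contrast described here, so the values and calls of its genes in that contrast are given as a description and support nothing about the interval or those genes. Of the 50 genes, 30 were protein-coding, 13 were long noncoding RNAs and 7 had other biotypes, and 28 passed the filter on low counts and entered the fit over 14133 genes. A gene could pass that filter through either group, so counts over the 28 genes tested do not stand for all 50.

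The libraries came from DLD1, an established human colorectal cancer cell line. OE-WT cells carried lentiviral constructs for wild-type TRMT6/61A, the 2-subunit tRNA m1A methyltransferase, and CTRL cells carried the empty vector. RNA was extracted from cleared cell lysates made with cycloheximide, and poly(A)+ RNA was read in strand-specific libraries, with 2 libraries per group and 2 lanes per library joined in the table. No time after transduction and no clone were given for these lines, and the labels speak of duplicate cultures without saying how they were kept apart. The standard errors below rest on the spread between these libraries, pooled in part over all genes tested, and that spread may be partly technical.

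The 16p11.2 region is a gene-dense stretch flanked by segmental duplications, and its recurrent deletion and duplication are known for neurodevelopmental conditions and altered body weight. SEZ6L2 encodes a single-pass membrane protein of the SEZ6 family that is best known from neurons and is also expressed in several carcinomas. YPEL3 encodes a small zinc-binding protein of the Yippee-like family that is induced by p53 and restrains proliferation, and it has been linked to senescence. The other genes of the region include a MAP kinase, an aldolase, a vault protein, chromatin regulators and vesicle proteins, and the question asked of the data was whether SEZ6L2 and YPEL3 were lower together with these neighbours or alone.

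Total counts were 10460284 and 10327498 in OE-WT and 12379671 and 12063433 in CTRL. TRMT6 read 211 and 181 CPM (read counts normalised to library size with TMM scaling) in OE-WT against 52.6 and 55.4 CPM in CTRL, and TRMT61A read 138 and 130 CPM against 58.9 and 56.8 CPM, so both introduced genes were higher in the libraries labelled OE-WT. All 10 colorectal epithelial markers were tested, and their summed level, carried mostly by KRT8 and KRT18, was 12210 to 12550 CPM in OE-WT and 11010 to 11210 CPM in CTRL. KRT8 and KRT18 were called higher, while CDH1, KRT19, CDH17 and KRT20 were called lower, KRT20 with 8.36 and 9.93 CPM against 27.1 and 25.3 CPM. All 5 haematopoietic markers and all 3 neural markers stayed under 1 CPM in every library, while their sums were 0.197 to 0.202 CPM and 0.197 to 0.202 CPM in OE-WT and 0.156 to 0.162 CPM and 0.0777 to 0.0812 CPM in CTRL. Of the fibroblast markers 4 of 5, and of the endothelial markers 2 of 3, were under 1 CPM everywhere. The fibroblast sum was 1.77 to 2.32 CPM in OE-WT and 1.48 to 1.54 CPM in CTRL, and the endothelial sum was 0.590 to 0.806 CPM and 1.14 to 2.33 CPM. VWF, which carried most of the endothelial sum, was called lower, with 5 and 6 counts in OE-WT against 30 and 14 in CTRL. The fibroblast marker COL1A1 was tested and not called. The part of these differences in the results below was not tested, and in these bulk libraries fewer cells expressing a gene and less RNA per cell cannot be told apart.

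SEZ6L2 (chr16:29871159-29899550, minus strand) was covered by 528 and 609 reads in the OE-WT libraries, against 1892 and 1682 reads in CTRL. Its level was 53.2 and 59.9 CPM against 147 and 137 CPM, a log2 fold change of OE-WT over CTRL of -1.33 ± 0.08 (SE, n = 2 per group). Both OE-WT libraries lay far under both CTRL libraries, and SEZ6L2 ranked 133 from the lowest fold change among all genes tested. YPEL3 (chr16:30092314-30096915, minus strand) was covered by 91 and 99 reads in the OE-WT libraries, against 177 and 161 reads in CTRL, or 9.17 and 9.73 CPM against 13.8 and 13.1 CPM. Its log2 fold change was -0.51 ± 0.15, a smaller difference than that of SEZ6L2, with a wider error and fewer reads behind it. Its libraries were lower in OE-WT without overlap, as were those of 30.2% of all genes tested. YPEL3 ranked 1363 from the lowest. The start sites of these genes lie 197.4 kb apart.

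**Figure D1:**
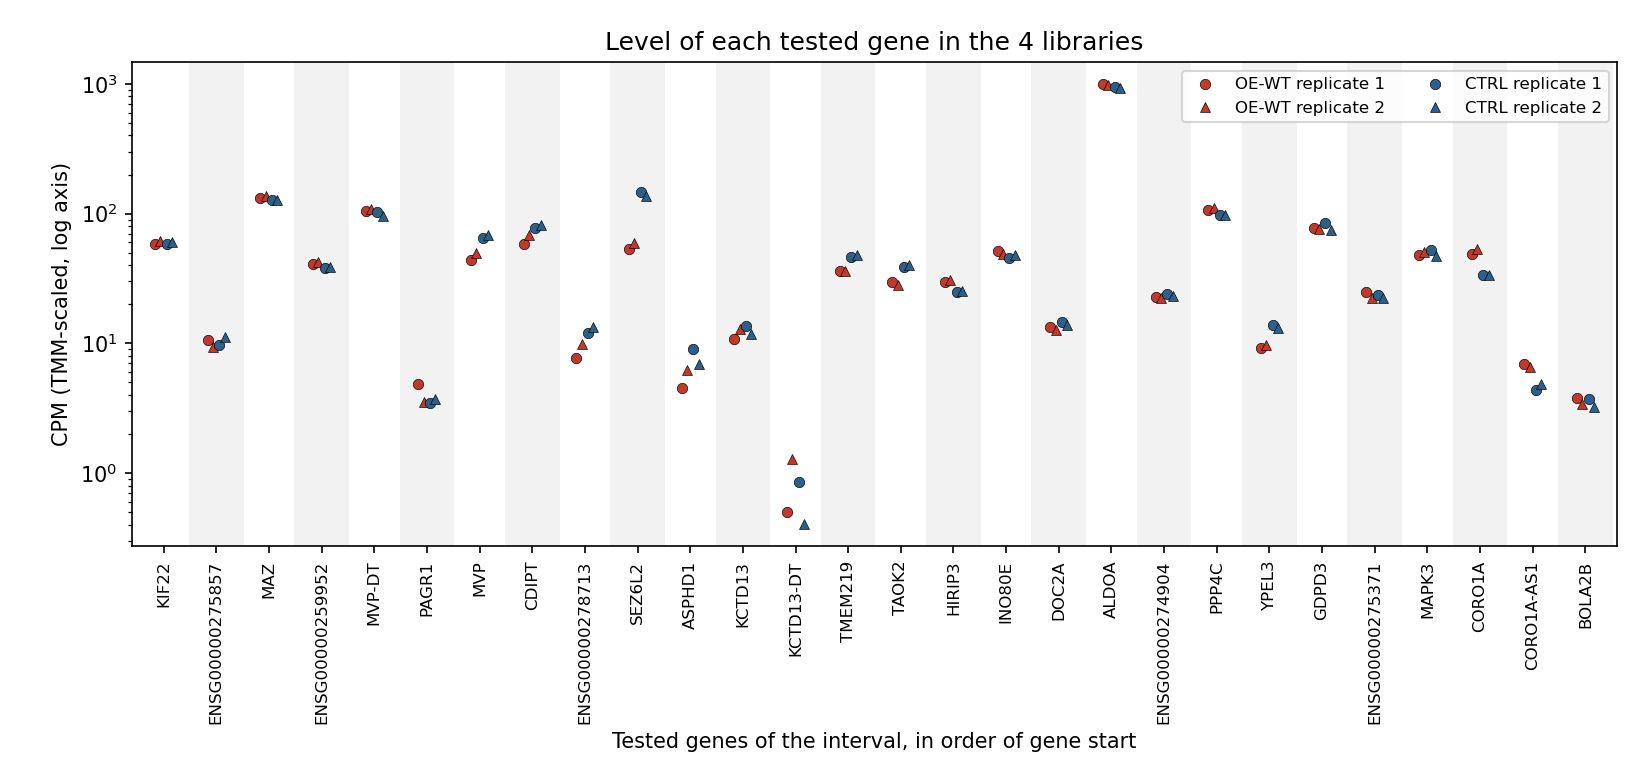
CPM on a log axis for the 28 genes tested, in order of gene start, with red points for the 2 OE-WT libraries and blue points for the 2 CTRL libraries (circle for replicate 1, triangle for replicate 2). SEZ6L2 sits at 53.2 and 59.9 CPM in red and at 147 and 137 CPM in blue, while KIF22 and MAPK3 overlap between the groups.

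Over the whole interval the log2 fold changes lay on both sides of 0. The median log2 fold change of the 28 genes tested was 0.0090, with 14 below 0 and 14 above, beside a median of 0.010 over all genes tested. Genes with an adjusted p below 0.05 in edgeR's quasi-likelihood test (Benjamini-Hochberg over all genes tested) are described as called. In the interval 8 were called lower, where 11.6% of all genes tested were called lower, and 1 was called higher, where the share over all genes was 9.44%. SEZ6L2, itself one of the genes through which the interval was chosen, was the gene at p below 0.05 with a log2 fold change below -1, as were 2.25% of all genes. The libraries of the groups did not overlap for 10 genes that were lower (30.2% of all genes tested) and for 9 that were higher (29.9%). The calls come from the fit over all genes and include SEZ6L2 and YPEL3, and since the interval was chosen through this contrast, nothing is read from these shares.

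The genes called lower were MVP, CDIPT, the long noncoding RNA ENSG00000278713, SEZ6L2, ASPHD1, TMEM219, TAOK2 and YPEL3, and the gene called higher was CORO1A. Of the 8 lower genes, 7 lay in a run of 9 tested genes, MVP to TAOK2, beside 11.6% called lower over all genes tested. The run spans 153 kb between its first and last gene starts and was singled out after the values were seen. Both its ends are called genes, so its counts and median depend on where it was cut, and nothing is read from them. The median log2 fold change in that run was -0.45, and it was -0.41 over the 6 protein-coding genes other than SEZ6L2, which ranged from -0.58 to -0.09 with 5 called lower. KCTD13 and KCTD13-DT were the genes of the run that were not called. Over the 19 genes tested outside the run the median was 0.06, with YPEL3 called lower and CORO1A called higher. Because SEZ6L2 and YPEL3 were chosen for their lower values, their place among the other genes is a description.

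**Figure D2:**
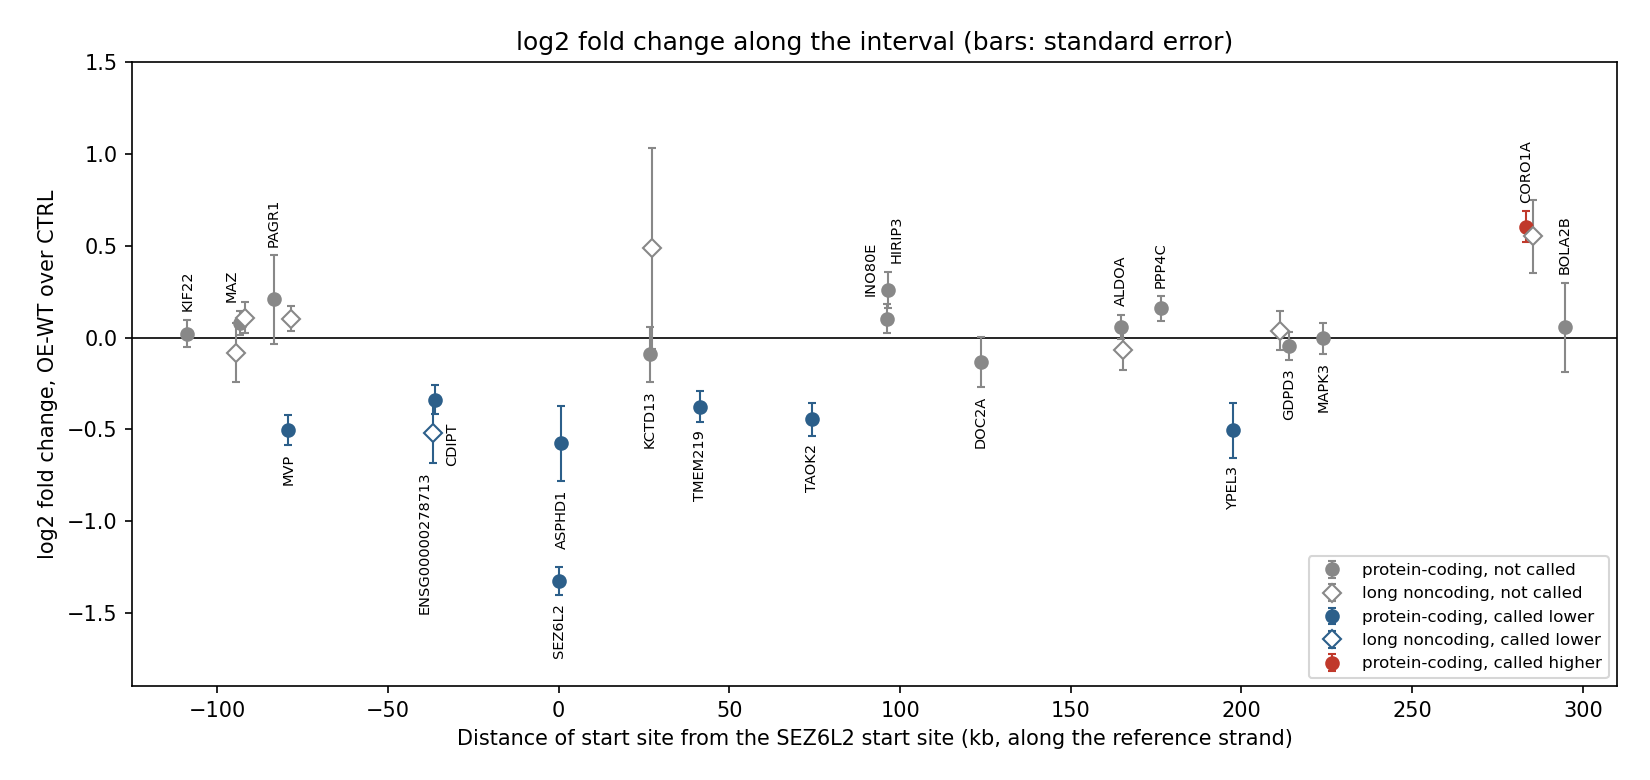
log2 fold change of OE-WT over CTRL with its standard error for the 28 genes tested, against the distance of each start site from that of SEZ6L2 in kb; filled circles are protein-coding genes, open diamonds long noncoding RNAs, blue is called lower, red called higher and grey not called. SEZ6L2 lies at -1.33, the other lower genes between -0.58 and -0.34, and YPEL3 at -0.51 stands between PPP4C at 0.16 and GDPD3 at -0.04.

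On the side of SEZ6L2 that holds MVP, the nearest tested genes were MVP, CDIPT and ENSG00000278713. MVP, the major protein of cytoplasmic vault particles, read 44.2 and 49.7 CPM in OE-WT and 65.1 and 68.2 CPM in CTRL (log2 fold change -0.50 ± 0.08). CDIPT, the phosphatidylinositol synthase, read 58.1 and 67.8 CPM against 77.5 and 81.7 CPM (-0.34 ± 0.08). ENSG00000278713 read 7.66 and 9.93 CPM against 12.0 and 13.3 CPM (-0.52 ± 0.16). All 3 were lower without overlap, as were 30.2% of all genes tested. However, ENSG00000278713 is transcribed from the strand opposite CDIPT and 655 of its 658 exonic bases lie in CDIPT exons. The strand setting of the counting was not given in the sources used here, so these values may not be independent.

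On the other side the nearest tested genes were ASPHD1, KCTD13 and KCTD13-DT. ASPHD1, a predicted aspartate beta-hydroxylase domain protein, starts 0.8 kb from SEZ6L2 on the opposite strand and read 4.53 and 6.19 CPM in OE-WT and 9.02 and 6.98 CPM in CTRL (-0.58 ± 0.20). KCTD13, an adaptor of the CUL3 ubiquitin ligase, read 10.9 and 12.9 CPM against 13.5 and 11.8 CPM (-0.09 ± 0.15), and its libraries overlapped between the groups. KCTD13-DT had at most 1.28 CPM in any library (0.49 ± 0.55) and was the only tested gene with fewer than 10 counts in some library. ASPHD1 and KCTD13 share 333 exonic bases on opposite strands. Beyond them, TMEM219, a membrane receptor for IGFBP3, read 36.2 and 36.4 CPM against 46.3 and 47.9 CPM (-0.38 ± 0.08). TAOK2, a kinase of the STE20 family, read 29.9 and 28.2 CPM against 38.7 and 40.4 CPM (-0.45 ± 0.09). SEZ6L2, TMEM219 and TAOK2 share no exonic bases with another gene, and all 3 were lower without overlap, as were 30.2% of all genes tested. The other tested genes that share none, KCTD13-DT (0.49 ± 0.55), PPP4C (0.16 ± 0.07) and MAPK3 (-0.0042 ± 0.08), were not called.

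The neighbours of YPEL3 gave another picture. ALDOA, the glycolytic aldolase, read 989 and 972 CPM in OE-WT and 953 and 928 CPM in CTRL (0.06 ± 0.06). PPP4C, the catalytic subunit of protein phosphatase 4, read 106 and 111 CPM against 97.2 and 96.8 CPM (0.16 ± 0.07). ENSG00000274904, which overlaps ALDOA, read 23.0 and 22.2 CPM against 24.0 and 23.4 CPM (-0.07 ± 0.11). On that side no gene was called, although the libraries of ALDOA and PPP4C were higher in OE-WT without overlap. Those of ENSG00000274904 were lower without overlap. Of all genes tested, 29.9% were higher and 30.2% lower without overlap. On the far side of YPEL3, GDPD3, a lysophospholipase D, read 78.0 and 76.5 CPM against 84.8 and 74.4 CPM (-0.04 ± 0.08). ENSG00000275371 read 24.98 and 22.5 CPM against 23.8 and 22.4 CPM (0.04 ± 0.11). MAPK3, the kinase ERK1, read 48.3 and 50.8 CPM against 52.0 and 47.3 CPM (-0.0042 ± 0.08). These 3 overlapped between the groups, and from HIRIP3 to MAPK3 none of the 9 tested genes other than YPEL3 was called, with log2 fold changes from -0.13 to 0.26. Among them DOC2A was also lower, and HIRIP3 and INO80E were also higher, without overlap. In a refit with a GC trend removed from each library, HIRIP3, INO80E and PPP4C were called higher. YPEL3 shares 300 exonic bases with YPEL3-DT on the other strand, which had 4, 6, 7 and 4 counts and was not tested.

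Promoter sequence was described for the genes matched in RefSeq windows (GRCh38.p14, 300 bases around the gene start of RefSeq, most of them before it), which were found for 25 of the 50 genes and 19 of those tested. SEZ6L2, ASPHD1, DOC2A and GDPD3 were among the genes without one. The RefSeq start is not always the GENCODE gene start used above: the offset was 702 bases for YPEL3, whose window lies inside the GENCODE gene, 775 for CORO1A, 21194 for TMEM219 and 16448 for TLCD3B, and 16 and 0 for PPP4C and TAOK2. The windows below are shown because they set YPEL3 and its uncalled neighbour PPP4C beside TAOK2, the last gene of the lower run, and CORO1A, the gene called higher. Capitals mark the GC box (GGGCGG) and a MAZ-type motif (GGGAGGG), each searched on both strands, and a run of capitals can hold more than 1 overlapping match.
YPEL3, chr16:30096164-30096463, minus strand: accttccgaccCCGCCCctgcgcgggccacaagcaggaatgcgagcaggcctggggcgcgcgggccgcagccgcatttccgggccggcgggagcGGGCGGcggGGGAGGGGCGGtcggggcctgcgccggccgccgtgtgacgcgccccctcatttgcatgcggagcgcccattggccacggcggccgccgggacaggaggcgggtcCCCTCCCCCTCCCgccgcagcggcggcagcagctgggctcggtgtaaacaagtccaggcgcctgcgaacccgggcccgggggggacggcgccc
PPP4C, chr16:30075744-30076043, plus strand: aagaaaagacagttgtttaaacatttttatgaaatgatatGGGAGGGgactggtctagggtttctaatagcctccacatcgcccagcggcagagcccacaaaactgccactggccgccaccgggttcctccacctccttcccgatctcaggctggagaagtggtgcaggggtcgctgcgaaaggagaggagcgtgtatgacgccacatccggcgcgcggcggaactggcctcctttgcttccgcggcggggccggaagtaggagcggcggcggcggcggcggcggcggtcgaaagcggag
TAOK2, chr16:29973618-29973917, plus strand: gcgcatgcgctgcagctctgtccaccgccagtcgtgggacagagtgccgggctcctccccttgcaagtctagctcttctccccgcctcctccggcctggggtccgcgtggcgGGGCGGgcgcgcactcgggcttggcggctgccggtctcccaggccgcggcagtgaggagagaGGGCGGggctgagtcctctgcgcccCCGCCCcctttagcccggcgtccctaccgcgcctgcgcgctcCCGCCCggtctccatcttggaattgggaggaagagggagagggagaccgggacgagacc
CORO1A, chr16:30183352-30183651, plus strand: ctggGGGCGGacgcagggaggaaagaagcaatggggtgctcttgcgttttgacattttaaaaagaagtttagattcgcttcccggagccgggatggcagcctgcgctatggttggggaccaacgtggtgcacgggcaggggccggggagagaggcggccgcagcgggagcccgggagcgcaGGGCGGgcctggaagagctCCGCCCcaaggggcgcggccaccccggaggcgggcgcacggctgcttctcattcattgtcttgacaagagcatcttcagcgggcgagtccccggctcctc

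The YPEL3 window held 3 GC boxes and 3 MAZ-type matches at 79.0% GC, with 42 CpG dinucleotides. The TAOK2 and CORO1A windows held 4 and 3 GC boxes, and the PPP4C window held 1 MAZ-type match and no GC box. MVP, the first gene of the lower run, had 4 CpG and neither motif in its window. A GC box was present in 56.0% of the 25 windows of the interval and in 45.0% of all 35116 windows, and a MAZ-type match in 40.0% and 26.6%. CCAAT was found in 11 of the 25 windows and in 34.6% of all windows, and TATAAA in 0 of the 25 and in 11.5% of all, again on either strand. Of the 5 lower genes with a window 4 held CCAAT, 4 a GC box and 2 a MAZ-type match. Of the 13 genes with a window that were not called 3 held CCAAT, 6 a GC box and 5 a MAZ-type match. The ETS motif (CCGGAAGT) was held by 0 of the 5, 3 of the 13 and 4.14% of all windows. The 5 lower genes include YPEL3, and TMEM219 with its window far from the GENCODE start, so nothing is read from these counts. The windows of YPEL3 and YPEL3-DT share 284 bases, since these genes start opposite each other, and those of HIRIP3 and INO80E share 244 bases. A match is a description of these letters and not a site of binding.

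Ratios of raw counts within a library do not depend on the scaling between libraries, but they contain the selected counts of SEZ6L2 and YPEL3 and are given as a description only. For each 100 counts of MVP there were 120.3 and 120.4 counts of SEZ6L2 in OE-WT and 225.8 and 200.2 in CTRL. Against each of the 19 other protein-coding genes tested, SEZ6L2 was lower in both OE-WT libraries than in both CTRL libraries, and the ratio of the group means ran from 0.262 against CORO1A to 0.597 against ASPHD1. YPEL3 was lower without overlap against 15 of its 19 neighbours. The ratio of means for YPEL3 was 0.631 against PPP4C, 0.725 against GDPD3 and 0.706 against MAPK3, but it was 1.00 against MVP, 0.96 against TAOK2 and 1.06 against ASPHD1. The libraries overlapped between the groups for the ratios of YPEL3 to MVP, TAOK2 and ASPHD1, and its ratio to SEZ6L2 was higher in OE-WT, at 1.77 times that in CTRL.

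**Figure D3:**
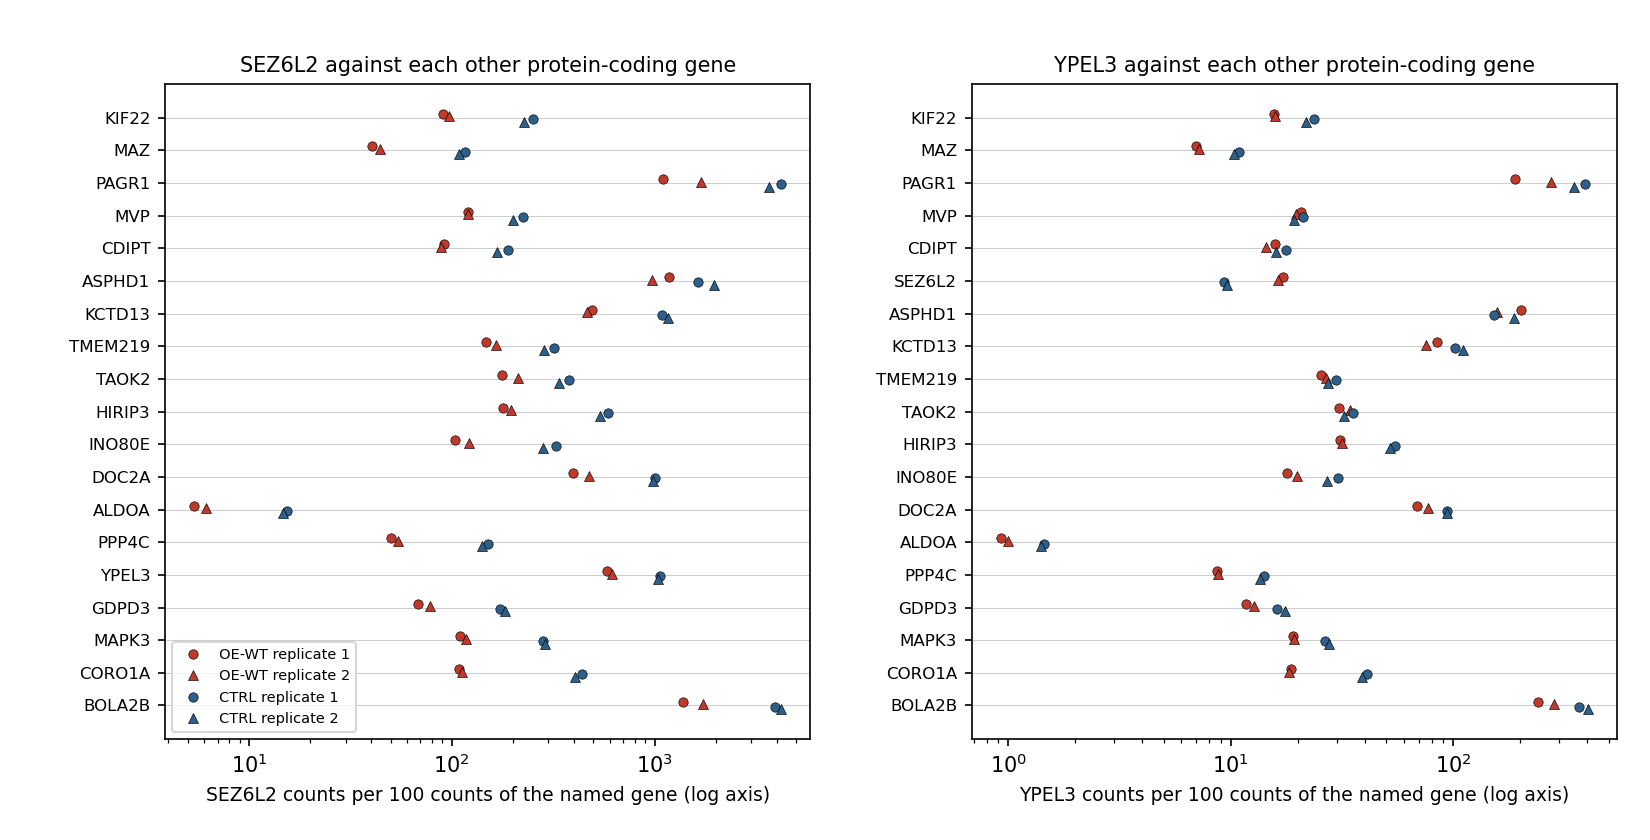
Counts of SEZ6L2 (left) and YPEL3 (right) per 100 counts of each other tested protein-coding gene of the interval, on log axes, with 1 point per library (red OE-WT, blue CTRL). Red lies left of blue for SEZ6L2 against all 19 genes, and for YPEL3 against 15 of 19, with SEZ6L2 turned the other way at a ratio of 1.77.

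The counts by role that follow stand beside 11.6% called lower and 9.44% called higher over all genes tested, and nothing is read from them, since SEZ6L2 and YPEL3 are counted in them. The signalling genes were MAPK3, TAOK2, PPP4C and YPEL3, all 4 tested, and 2 of them (TAOK2 and YPEL3) were called lower. The group of chromatin, transcription and mitosis held 7 genes with PPP4C counted here too, of which 6 were tested, none was called and all had log2 fold changes between 0.02 and 0.26. The chromokinesin KIF22 read 58.5 and 61.8 CPM in OE-WT and 58.3 and 60.2 CPM in CTRL, and the zinc finger factor MAZ read 132 and 136 CPM against 127 and 126 CPM. PAGR1, a partner of the MLL3/MLL4 methyltransferase complexes, read 4.84 and 3.54 CPM against 3.50 and 3.73 CPM. HIRIP3, a binding partner of the histone chaperone HIRA, read 29.6 and 30.7 CPM against 25.03 and 25.25 CPM (0.26 ± 0.10). INO80E, a subunit of the INO80 remodeller, read 51.2 and 49.2 CPM against 45.2 and 48.2 CPM. HIRIP3, INO80E, MAZ and PPP4C were higher in OE-WT without overlap, as were 29.9% of all genes tested, and KIF22 and PAGR1 overlapped. The mesodermal transcription factor TBX6 had 2, 2, 3 and 4 counts and was not tested.

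In the metabolic group 4 of 6 genes were tested, and CDIPT was called lower. BOLA2B, which takes part in iron-sulfur cluster delivery, read 3.83 and 3.44 CPM in OE-WT and 3.73 and 3.25 CPM in CTRL (0.06 ± 0.24). The 399 bases of the BOLA2 transcript match a part of its 1012-base transcript with 0 edits, so reads from that part may be split between the copies. TLCD3B and SULT1A3 had at most 6 and 2 counts in a library, and SULT1A3 differs from SULT1A4 by 4 edits. Among the 10 membrane, synapse and vesicle genes 7 were tested, and MVP, SEZ6L2, ASPHD1 and TMEM219 were called lower. CORO1A, an actin-binding coronin of leukocytes, was called higher, with 49.0 and 53.1 CPM against 33.5 and 33.6 CPM (0.60 ± 0.09). The leukocyte marker PTPRC had 1 count in total over the 4 libraries. CORO1A-AS1, which shares 532 of its 811 exonic bases with CORO1A, read 6.95 and 6.58 CPM against 4.35 and 4.87 CPM (0.55 ± 0.20) and was not called. DOC2A, a calcium sensor of vesicle release, read 13.4 and 12.6 CPM against 14.6 and 13.9 CPM (-0.13 ± 0.14), whereas PRRT2, a synaptic protein of the same interval, had 2, 5, 3 and 6 counts. Of the 22 genes that were not tested, 11 had 0 counts in all libraries, among them C16orf54 and SLX1A, whose transcript differs from that of SLX1B by 1 edit so that its reads may be lost between the copies, and the highest count of any of the 22 in 1 library was 7.

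Per exonic length, ALDOA had the highest level of the 20 protein-coding genes tested, at 246 ± 4.6 RPKM in CTRL (SD, n = 2), followed by GDPD3 at 50.6 ± 4.7 RPKM. SEZ6L2 ranked 5 of 20 in CTRL at 34.5 ± 1.8 RPKM, next to MAZ at 36.0 ± 0.032 and PPP4C at 35.5 ± 0.084 RPKM, from which it differed by less than its spread. In OE-WT SEZ6L2 stood at 13.7 ± 1.1 RPKM and ranked 7, beside MAPK3 at 13.5 ± 0.49 RPKM. YPEL3 ranked 15 in both groups, at 4.22 ± 0.15 RPKM in CTRL and 2.97 ± 0.12 RPKM in OE-WT.

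The genes just outside differed from each other. QPRT, an enzyme of NAD synthesis from quinolinate, was covered by 24 and 16 reads in the OE-WT libraries, against 159 and 126 reads in CTRL (-2.50 ± 0.23). CD2BP2, the nearest gene tested after the interval, read 57.5 and 58.5 CPM in OE-WT and 56.0 and 61.4 CPM in CTRL (-0.02 ± 0.08). The window of the same width after the interval held 24 tested genes with a median of -0.01, of which 1 was called lower and 3 higher. The window before it held 2 tested genes. These were QPRT, which was called lower, and 1 gene with a log2 fold change of -0.94, which was not called. Over the 696 other genes tested on chromosome 16 the median was -0.05, with 13.1% called lower and 7.33% called higher.

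Paralogues elsewhere in the genome, which the choice of the interval did not use, were read from a list of 24 genes, of which 19 were tested. The list was made with earlier results of these data known, so it is not an independent set. In edgeR's quasi-likelihood test 2 were called lower, CORO1B (-0.22 ± 0.08, adjusted p = 0.0397) and PRRT1 (-0.98 ± 0.34, adjusted p = 0.0427). A further 2 were called higher, CORO1C (0.32 ± 0.07, adjusted p = 0.00142) and PPP6C (0.22 ± 0.07, adjusted p = 0.0285). These are 2 of 19 in each direction, beside 11.6% lower and 9.44% higher over all genes tested, and the median over the 19 genes was -0.09. The Yippee-like genes YPEL1 (-0.12 ± 0.19), YPEL2 (-0.03 ± 0.47) and YPEL5 (-0.23 ± 0.11) were not called, and YPEL4 had at most 3 counts in a library. SEZ6 had no counts in OE-WT, against 2 and 1 in the CTRL libraries, and SEZ6L had 0 in all, so neither exceeded the limit of 3 counts that a count of 0 allows.

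Some calls rested on the test or on 1 library. MVP, SEZ6L2, TMEM219, TAOK2 and CORO1A were called in all 9 refits and all 4 fits without a library. YPEL3 was not called by DESeq2 or without OE-WT replicate 1 or CTRL replicate 1. ASPHD1 lost its call without the same libraries, with DESeq2, with no filter beyond 1 count and with a GC trend removed. CDIPT lost it without OE-WT replicate 1, and ENSG00000278713 without OE-WT replicate 1 or CTRL replicate 2, with DESeq2 and with the GC trend removed. That trend was on the GC content of the longest transcript of a gene. With it removed from each library, 9.99% of all genes tested were called higher and 10.5% lower. In the interval 8 genes were called higher in place of 1, and 6 were called lower. Those called higher were MAZ, ENSG00000259952, MVP-DT, HIRIP3, INO80E, PPP4C, CORO1A and CORO1A-AS1.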

How the data were processed

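Poly(A)+ RNA-seq of 2 OE-WT and 2 CTRL libraries of DLD1 cells was analysed. The authors deposited raw read counts per gene, with the 2 lanes of a library joined in 1 column. The submitters' processing notes name HISAT2 2.2.1, featureCounts 2.0.0 and DESeq2 1.34.0, whereas the study's methods name Cutadapt, HISAT2, HTSeq and edgeR; the annotation release and the strand setting of the counting are not given in the sources used here. The study's methods speak of 3 replicates and rRNA removal, the labels of 2 replicates and poly(A) selection. The design text names separate TRMT6 and TRMT61A groups, while the labels give 1 joint group.

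Gene IDs were matched to GENCODE 44 (57532 of 58302 matched) to obtain positions, exon lengths and overlaps. Counts were filtered with filterByExpr (minimum count 10, by group), scaled by TMM and tested with edgeR 4.0.16 (quasi-likelihood, R 4.3.3, limma 3.58.1), with Benjamini-Hochberg adjustment over 14133 genes and a threshold of 0.05; the fold threshold was an absolute log2 fold change of 1, as in the study's methods. The fit was tested on simulated counts. DESeq2 1.42.0 was an alternative. RPKM used the summed exon length of a gene. A count of 0 allows up to 3 counts, or 0.242 to 0.290 CPM, for counting error only. With 2 libraries per group an exact two-sided permutation test cannot go below p = 0.333. Replicates differed beyond sampling noise (chi-square per degree of freedom 4.81 and 4.44).

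Values were given for SEZ6L2, YPEL3, their 3 nearest tested neighbours on each side, every called gene and the genes of 4 role groups. The interval, its genes, the role groups, the paralogues and the markers were chosen with earlier results of these data known. Figures were drawn with matplotlib 3.10.9 in Python 3.11.15. One gene of the paralogue list is not reported here. The other sequencing assays of the study and the mutant enzyme were not analysed here.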

Additional observations from a re-analysis of the deposited data

How the results depend on the processing

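All 9 called genes kept their sign in all 13 refits and fits without a library. The median log2 fold change of the genes tested, 0.0090, was -0.082 with library size only, -0.057 with no filter beyond 1 count, 0.079 with the GC trend removed and -0.19 over the 6 genes that share no exonic bases and lie in no duplicated block; without a library in turn it ran from -0.03 to 0.05. SEZ6L2 was at -1.16 with the GC trend removed, and at -1.42 to -1.24 without a library in turn. YPEL3 was at -0.60 with library size only, -0.41 with the GC trend removed and -0.56 to -0.46 without a library in turn, and its call was lost with DESeq2. The 8 genes called lower became 5 with DESeq2, 3 of the 6 genes without shared bases, and 4 to 8 without a library in turn, 4 being without OE-WT replicate 1. The 1 gene called higher became 2 with edgeR's exact test (10.1% of all genes) and 2 with its likelihood ratio test (10.6%). That count was 8 with the GC trend removed (9.99% of all genes) and 0 of the 6 genes without shared bases. The 1 gene past the fold threshold became 2 when gene bodies overlapping the interval counted, which adds QPRT, and 0 without SEZ6L2 and YPEL3, an alternative chosen after seeing the data. The causes were not tested, except that fewer genes entered where genes were left out. Over all genes, library size only gave 17.3% lower and 5.19% higher and a median of -0.08, DESeq2 gave 6.05% and 3.69%, and no filter gave 5.47% and 3.23%. With the replicate block the counts stayed at 8 lower and 1 higher, SEZ6L2 at -1.33 and YPEL3 at -0.51, and over all genes 10.7% and 8.10% were called. Libraries with the same number did not deviate together (r = -0.0681 across genes, which are not independent replicates). With 2 libraries per group this cannot exclude a pairing that affects few genes, and the labels give no more than the shared number. A fit without a library leaves 1 group with a single library, which is assumed to vary like the others. The depth, 10327498 to 12379671 counts per library, limits genes such as KCTD13-DT and PAGR1, whose standard errors were 0.55 and 0.24.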
